A study of Mus musculus with 8 samples.

Results

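The genes described here encode the enzymes of 3 conjugating families: the glutathione S-transferases (GST), the UDP-glucuronosyltransferases (UGT) and the sulfotransferases (SULT). They were all protein-coding genes of the deposited table whose symbol begins with Gst and a class letter, with Ugt1, Ugt2 or Ugt3, or with Sult, each followed by its number. This gave 64 of 55114 genes (22026 of them protein-coding), of which 22 were GST, 21 UGT and 21 SULT genes. RNA had been sequenced from intestinal crypts of 8-week-old C57BL/6 mice, from 4 Mex3a-/- mice (KO) and 4 littermate controls (Ctrl), to ask how the crypt transcriptome changed without Mex3a, an RNA-binding protein of the crypt-base stem cells. The KO was constitutive, so Mex3a was missing from every cell of the mouse and not from the crypt alone. The segment of intestine and the sex of the mice are not given in the sources used here. Between 20324184 and 24726221 reads were counted per Ctrl mouse and between 23489180 and 30654105 per KO mouse. Mex3a itself had 269, 236, 327 and 328 counts in Ctrl mice 1 to 4 and 20, 28, 6 and 8 counts in KO mice 1 to 4, a log2 fold change of -4.43 ± 0.43 (SE, edgeR adjusted p = 0.0310, and 0.126 when blocked by replicate number).

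These enzymes carry out the conjugation step of detoxification, in which a polar group is joined to a drug, dietary compound, hormone or bile acid so that it can be carried out of the cell. GSTs join the thiol of glutathione to electrophiles, UGTs transfer glucuronic acid from UDP-glucuronate on the lumenal side of the endoplasmic reticulum, and cytosolic SULTs transfer a sulfonate group from the donor PAPS. In the intestine they are best known from absorptive enterocytes, where they form part of the barrier met by compounds taken up from food.

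Sequence decides how well the members can be told apart in these counts, most of all at the Ugt1a locus (GRCm38 chr1:88055388-88220002, plus strand). Here 9 genes each have their own exon that encodes the substrate-binding part of the enzyme, spliced to 4 exons common to all of them, of which the nearest is chr1:88215044-88215175. The junctions of the tested genes and of Ugt1a6b are given because they mark where the transcripts become the same. The last 20 bases of the gene's own exon are in lower case and the first 20 bases of the common exon in capitals.
Ugt1a9: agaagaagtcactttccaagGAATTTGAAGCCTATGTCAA
Ugt1a7c: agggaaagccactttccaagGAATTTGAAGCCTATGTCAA
Ugt1a6b: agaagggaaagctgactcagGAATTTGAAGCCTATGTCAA
Ugt1a6a: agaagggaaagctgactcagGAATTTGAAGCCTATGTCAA
Ugt1a1: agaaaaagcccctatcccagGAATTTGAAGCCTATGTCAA
After this junction, 1311 bases were identical in all 9 transcripts. The 20 bases before it were the same in Ugt1a6a and Ugt1a6b, whose own exons span chr1:88138378-88139331 and chr1:88106862-88107799, and differed among the other genes shown.

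The promoters of Ugt2b34, Ugt2a3, Sult1b1 (2 annotated starts) and Sult1d1 are also shown, since these genes of 1 stretch of chromosome 5 had their highest level in the same mouse. Each window covers 110 bases before and 40 bases from the annotated start (RefSeq, GRCm38.p6), and capitals mark matches on either strand to GTTAAT, the core of the HNF1 site, to CAAAGTCCA, an HNF4 site, or to TNGCGTG, the aryl hydrocarbon receptor site.
Ugt2b34, chr5:86906898-86907047, minus strand: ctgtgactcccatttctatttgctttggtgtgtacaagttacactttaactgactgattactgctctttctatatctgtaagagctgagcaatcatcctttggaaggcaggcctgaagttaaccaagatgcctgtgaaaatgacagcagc
Ugt2a3, chr5:87337156-87337305, minus strand: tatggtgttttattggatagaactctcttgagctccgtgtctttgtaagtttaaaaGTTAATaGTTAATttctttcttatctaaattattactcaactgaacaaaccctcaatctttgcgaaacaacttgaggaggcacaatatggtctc
Sult1b1, chr5:87536183-87536332, minus strand: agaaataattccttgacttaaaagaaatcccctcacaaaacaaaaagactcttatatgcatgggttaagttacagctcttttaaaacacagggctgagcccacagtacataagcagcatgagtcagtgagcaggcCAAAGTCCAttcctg
Sult1b1, chr5:87538156-87538305, minus strand: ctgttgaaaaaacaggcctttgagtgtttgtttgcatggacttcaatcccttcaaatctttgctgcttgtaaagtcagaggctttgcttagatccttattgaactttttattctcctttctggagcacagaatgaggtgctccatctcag
Sult1d1, chr5:87568967-87569116, minus strand: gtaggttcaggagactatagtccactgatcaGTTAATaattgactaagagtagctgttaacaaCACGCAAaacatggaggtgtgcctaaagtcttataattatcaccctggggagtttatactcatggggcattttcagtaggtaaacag
Counted from the start site as 0, Ugt2a3 held GTTAAT with its first base at -54 and again at -47, Sult1d1 held it at -79 together with the reverse of TNGCGTG at -47, and the first Sult1b1 window held CAAAGTCCA at 25. The windows of Ugt2b34 and of the second Sult1b1 start held none of these motifs. Promoters of 56 of the 64 genes were found in the RefSeq table by symbol, 67 in all with alternative starts, each running from 250 bases before to 50 bases after the start. Of these 67, 20.9% (14) held GTTAAT, against 7.10% of all 32851 promoters in the table. The antioxidant response element TGACNNNGC was in 4.48% (3: Gsta3, Gstm5 and Gstm7) against 12.4%, TNGCGTG in 4.48% against 5.07%, TTTATG, the CDX core, in 5.97% against 11.9%, and CAAAGTCCA in 1.49% against 0.475%. The 14 promoters with GTTAAT were those of 7 tested genes (Gsta3, Sult1a1, Sult1d1, Ugt1a1, Ugt1a6a, Ugt1a9 and Ugt2a3) and of 7 that did not reach the filter on counts (4 Sult2a genes, Sult3a2, Ugt1a10 and Ugt3a1). These shares are descriptions of letters in fixed windows, the promoters of gene copies share their sequence, and base composition was not compared.

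Of the 64 genes, 36 had enough reads to be tested: 20 GST, 9 UGT and 7 SULT genes. Among the other 28, 17 had no read in any mouse and 11 had at most 75 counts in total over the 8 mice. Nearly the whole GST family therefore passed the filter on counts, and most SULT genes did not. The filter does not part present from absent genes, since Gstp2 passed with 76 counts in total and Ugt1a6b, with 75, did not. The 17 genes without reads included Sult1e1, the oestrogen sulfotransferase, Sult1c1, 7 genes of the Sult2a group, which sulfonates bile acids and hydroxysteroids in liver, Ugt3a1, Ugt3a2 and Gstp3. Ugt2a1, Ugt2a2 and Ugt1a10 also had none, but only 30 of 2570, 140 of 2541 and 809 of 2267 of their exonic bases are in no other gene, so reads in the remainder may not have been counted for them.

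Levels of the tested genes ranged from 0.257 FPKM (Gsto2) to 175 FPKM (Gsto1) as means of 8 mice, and on this scale a single gene led each family. On the FPKM scale, which divides by gene length, Gsto1, an omega-class enzyme that reduces dehydroascorbate and acts as a thioltransferase, was highest, with 175 ± 25.3 FPKM in Ctrl and 174 ± 14.6 in KO mice (mean ± SD, n = 4 each). It supplied 46.1% of the summed GST level. Ugt2b34, an enzyme of the steroid-conjugating UGT2B group, stood at 71.9 ± 6.08 FPKM in Ctrl and 81.1 ± 13.1 in KO mice and supplied 48.4% of the UGT sum. Its lead over Ugt1a1 depends on the length used: per kilobase of exon that no other gene shares, Ugt2b34 had 72.5 ± 6.34 CPM in Ctrl and 81.3 ± 13.3 in KO mice, and Ugt1a1 had 71.8 ± 23.5 and 69.6 ± 22.1 CPM, still below Ugt2b34 in the mean but within the spread between mice. Sult1d1, which sulfonates catecholamines and small phenols, stood at 60.5 ± 13.8 and 69.5 ± 21.1 FPKM and supplied 56.3% of the SULT sum, and together with Sult1b1, a phenol and thyroid hormone sulfotransferase, 84.5%. Below Gsto1, the mu-class genes Gstm3 (30.1 FPKM as the mean of 8 mice), Gstm1 (26.2), Gstm5 (20.3) and Gstm2 (17.0) lay close to Gsta4 (20.6), Gstt1 (15.3), Gsta1 (11.3), Gstz1 (11.2), Gstt2 (11.0) and Gstk1 (9.24), and the spread between mice of neighbours in this order overlapped. Gsta3, Gstp2, Gsta2, Gsto2 and Sult6b1 were tested but stood below 1 FPKM.

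**Figure D1:**
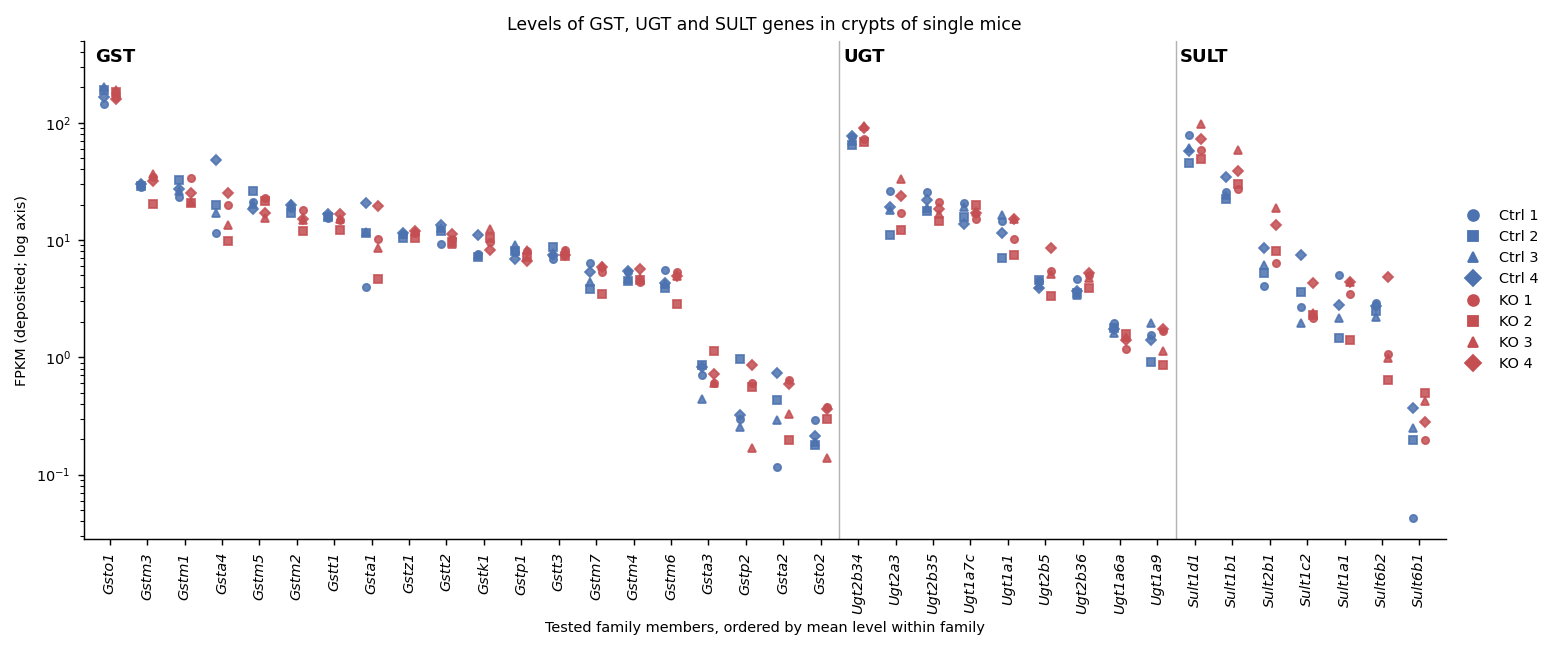
FPKM of the 36 tested GST, UGT and SULT genes (log axis), ordered by mean level within each family, with 1 point per mouse (blue Ctrl, red KO, n = 4 each; the marker shape gives the replicate number). Gsto1 lies above all others at a mean of 175 FPKM, the Ctrl and KO points of nearly every gene are interleaved, and Gsta4 in Ctrl and Sult6b2 in KO each have mouse 4 well above its group.

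The summed level of each family overlapped between genotypes, and no test was run on the sums. GST genes summed to 387 ± 39.7 FPKM in Ctrl and 370 ± 19.5 in KO mice, UGT genes to 153 ± 20.4 and 163 ± 27.3, and SULT genes to 103 ± 17.5 and 128 ± 41.9. The SULT sum was 98.9, 92.0, 183 and 139 FPKM in KO mice 1 to 4 against 119, 80.6, 97.5 and 114 in Ctrl mice 1 to 4, so that the higher KO mean rested on KO mice 3 and 4 and the groups overlapped. Since RNA came from whole crypt fractions, fewer cells of a type and less RNA per cell cannot be told apart in any of these values.

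The comparison of genotypes was read gene by gene from the fit over all 16109 genes tested. At the study's threshold of an unadjusted p under 0.05, 1 of the 36 genes was higher in KO mice (Sult2b1; 5.33% of all genes tested passed in this direction) and 2 were lower (Gstm2 and Ugt1a6a; 3.05% of all genes). The 3 calls were 8.33% of the 36 genes, against 8.38% of all genes tested. No member passed after adjustment over all genes (smallest adjusted p = 0.544, edgeR), where 0.00621% of all genes, Mex3a alone, did. DESeq2 gave no adjusted call among the members either (smallest adjusted p = 0.158, where 0.669% of the 13903 genes with an adjusted p were called) and 4 unadjusted ones, the same 3 genes and Sult1b1, against 9.09% of all genes by that test. The genotypes did not overlap for 1 member, Ugt1a6a, which was lower in KO, against 1.87% of all genes lower without overlap, and for 0 members in the higher direction, against 2.17%. The median log2 fold change of the 36 genes was -0.0055, beside -0.016 over all genes, with 17 values above and 19 below 0.

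How far a difference could be bounded depended on the gene. The 95% interval of the fold change lay within 1.5-fold in either direction for 14 members (12 GST, 2 UGT) and within 2-fold for 25, among them all 9 UGT genes. The narrowest interval was that of Gstz1, which isomerises maleylacetoacetate in tyrosine breakdown, with a log2 fold change of 0.02 and bounds of -0.13 and 0.18. For Gsto1 the value was -0.01 (interval -0.27 to 0.24), for Gstt3 0.00 (-0.21 to 0.21) and for Ugt1a7c -0.01 (-0.32 to 0.31). For the other 11 genes (5 GST and 6 SULT genes) the interval reached beyond 2-fold.

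**Figure D2:**
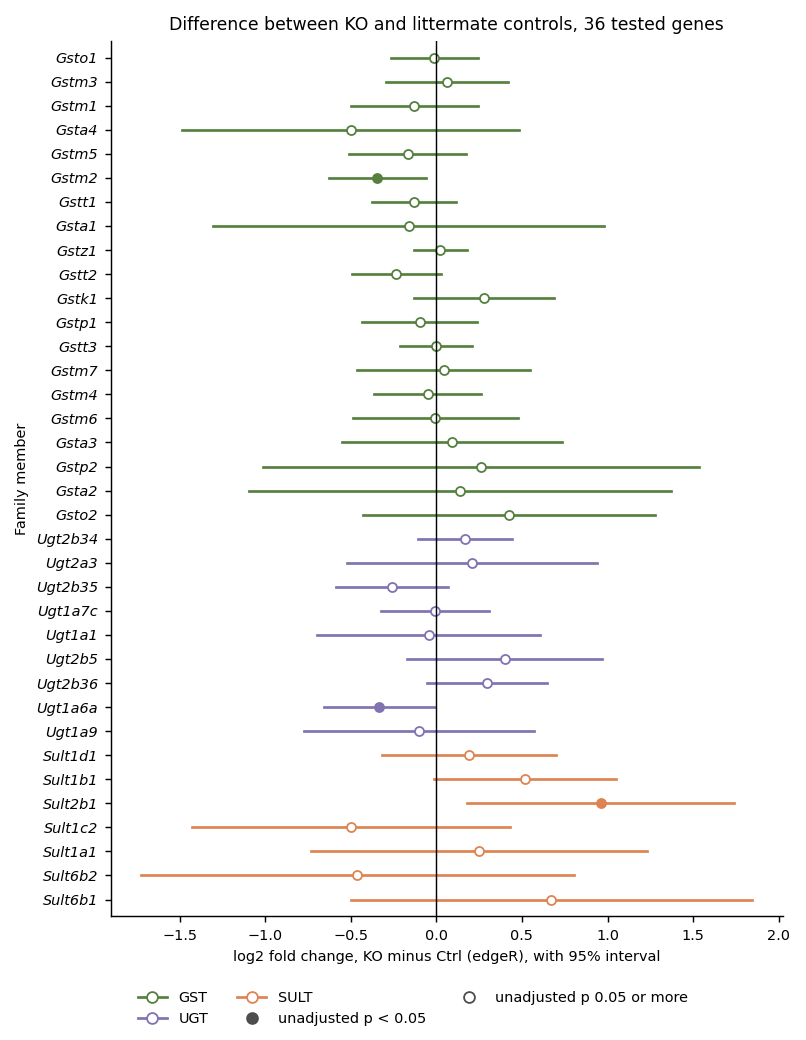
The log2 fold change of KO minus Ctrl (edgeR, 4 mice per genotype) with its 95% interval for the 36 tested genes, ordered as in the plot of levels and coloured by family. Filled points mark the 3 genes with an unadjusted p under 0.05 (Sult2b1 above 0, Gstm2 and Ugt1a6a below 0), and none of these passed adjustment.

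Sult2b1, which sulfonates cholesterol and other hydroxysteroids, gave the largest value of the 36 genes. It measured 16.2, 20.6, 24.2 and 34.2 CPM (read counts scaled by TMM to a common library size) in Ctrl mice 1 to 4 and 25.1, 32.0, 75.1 and 53.2 CPM in KO mice 1 to 4. KO mice 3 and 4 lay above every Ctrl mouse, KO mice 1 and 2 lay within the Ctrl range, and the KO mouse was the higher of the same-numbered mice in 4 of 4 pairs. Here and below, replicate numbers are not known to mark litters, so pairs and blocked values only describe same-numbered mice. The log2 fold change was 0.96 ± 0.35 (SE), with an unadjusted edgeR p of 0.0213 (adjusted p = 0.544) and an exact two-sided permutation p of 0.114. Blocked by replicate number it was 0.88 (unadjusted p = 0.00192, adjusted p = 0.214, edgeR). The unadjusted p missed 0.05 without Ctrl mouse 1 (0.0579), Ctrl mouse 2 (0.0523) or KO mouse 3 (0.0697). Without KO mouse 3, in which it was highest, the log2 fold change was 0.63. Sult2b1 shares 321 exonic bases with Lmtk3 and the antisense gene Gm31597, which had at most 21 and 14 counts per mouse.

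Sult1b1 followed the same order of KO mice. It measured 72.7, 62.6, 67.8 and 96.4 CPM in Ctrl and 75.7, 83.4, 163 and 107 CPM in KO mice 1 to 4. KO mouse 3 stood far above the rest, KO mice 1 and 2 lay within the Ctrl range, and 4 of 4 pairs were higher in KO. The log2 fold change of 0.52 ± 0.24 did not pass (unadjusted p = 0.0557, adjusted p = 0.604, edgeR). It passed unadjusted with the block (0.47, unadjusted p = 0.0450, edgeR), where 7.14% of all genes were called higher, and it was 0.25 without KO mouse 3. It also passed unadjusted without Ctrl mouse 4 (0.0250), KO mouse 1 (0.0209) or KO mouse 2 (0.0321). The neighbouring Sult1d1 measured 196, 112, 149 and 143 CPM in Ctrl and 143, 121, 240 and 180 CPM in KO mice, which overlapped (log2 fold change 0.19 ± 0.23, unadjusted p = 0.417).

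The lower-level SULT genes varied more. Sult6b2, described here after its values were seen, measured 6.38, 5.42, 4.79 and 5.93 CPM in Ctrl mice and 2.31, 1.40, 2.12 and 10.4 CPM in KO mice. KO mice 1 to 3 lay below every Ctrl mouse and KO mouse 4 above every Ctrl mouse. With all mice the log2 fold change was -0.46 ± 0.56 (unadjusted p = 0.432, adjusted p = 0.870, edgeR), and without KO mouse 4 it was -1.53 ± 0.24 (unadjusted p = 0.00016, adjusted p = 0.788). Sult1c2, Sult1a1 and Sult6b1, between 0.0924 and 13.9 CPM in single mice, had log2 fold changes of -0.50, 0.25 and 0.67 with unadjusted edgeR p of 0.256, 0.581 and 0.228. These values changed with single mice: Sult1c2 was 0.02 without Ctrl mouse 4, Sult1a1 was 0.67 without Ctrl mouse 1 and 0.03 without Ctrl mouse 2, and Sult6b1 ranged from 0.34 without Ctrl mouse 1 to 1.08 without Ctrl mouse 4.

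**Figure D3:**
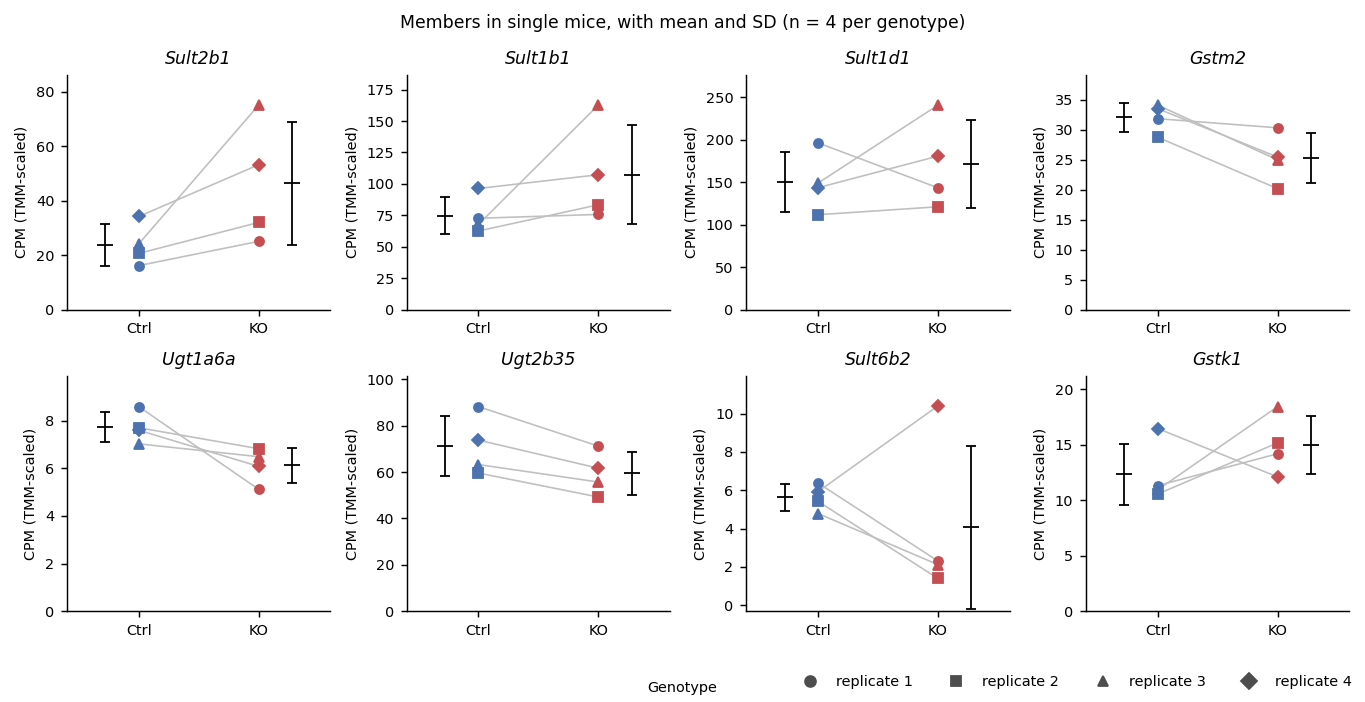
CPM (TMM-scaled) of 8 members in each mouse, with grey lines joining the Ctrl and KO mouse of the same replicate number and black marks for the mean with SD (n = 4 per genotype). Sult2b1 and Sult1b1 are highest in KO 3, Ugt1a6a alone has no overlap between genotypes, Ugt2b35 is lower in the KO mouse of all 4 pairs, and the KO mean of Sult6b2 rests on KO 4 at 10.4 CPM.

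Among the GST genes, only Gstm2 passed the unadjusted threshold. This mu-class gene, which conjugates aromatic electrophiles, measured 31.8, 28.7, 34.1 and 33.5 CPM in Ctrl and 30.3, 20.2, 25.0 and 25.4 CPM in KO mice 1 to 4. KO mice 2, 3 and 4 lay below all Ctrl mice, KO mouse 1 lay above Ctrl mouse 2, and the KO mouse was the lower in every pair. The log2 fold change was -0.35 ± 0.13 (unadjusted p = 0.0220, adjusted p = 0.545, edgeR; exact permutation p = 0.0571). Its unadjusted p was 0.0623 without Ctrl mouse 3, 0.0512 without Ctrl mouse 4 and 0.0603 without KO mouse 2.

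None of the other tested genes of the mu cluster on chromosome 3 passed. Whether they differ from Gstm2 was not tested, and the 95% intervals of Gstm1, Gstm4, Gstm5, Gstm6 and Gstm7 hold its value of -0.35. The interval of Gstm3 (-0.30 to 0.42) does not hold this value but overlaps the interval of Gstm2 itself (-0.63 to -0.06). Gstm3 measured 37.6, 38.4, 39.5 and 39.9 CPM in Ctrl mice, an SD of 1.05, but 44.9, 26.7, 48.4 and 42.0 CPM in KO mice, so that KO mouse 2 lay below and the other KO mice above every Ctrl mouse. Its log2 fold change was 0.06 ± 0.16 (unadjusted p = 0.710) with all mice and 0.22 (unadjusted p = 0.0227) without KO mouse 2. Gstm1 (-0.13 ± 0.16), Gstm5 (-0.17 ± 0.15), Gstm7 (0.04 ± 0.22), Gstm4 (-0.05 ± 0.14) and Gstm6 (-0.01 ± 0.21) had unadjusted edgeR p of 0.295 or more, and Gstm1 alone of these passed when a mouse was left out (-0.30, unadjusted p = 0.0477, without KO mouse 1). Gstm5 shares 178 exonic bases with the antisense gene 4933431E20Rik, which had 679 to 963 counts per mouse, and whether strand was used in counting is not given in the sources used here.

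The alpha-class genes Gsta4 and Gsta1 varied widely between mice of the same genotype. Gsta4, which clears 4-hydroxynonenal, a product of lipid peroxidation, measured 14.8, 25.6, 21.8 and 61.0 CPM in Ctrl and 25.4, 12.4, 17.0 and 32.2 CPM in KO mice. Gsta1 measured 3.84, 11.0, 11.2 and 19.9 CPM in Ctrl and 9.66, 4.46, 8.18 and 18.8 CPM in KO mice. For both genes, mouse 4 was the highest of its genotype, and the genotypes overlapped (log2 fold changes -0.50 ± 0.44 and -0.16 ± 0.51, unadjusted p = 0.281 and 0.757). Gsta1 counts are uncertain: 81.8% of the 100-base windows of its transcript also occur in Gm3776, Gsta2 or Gm10639, and Gm3776, with 33 to 178 counts, was likewise highest in mice 4. The same limit holds for the pi-class pair, in which 52.8% of the windows of Gstp1 and 63.5% of those of Gstp2 occur in other genes.

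Gstz1, Gstt3, Gstt1, Gsto1 and Gstt2, of the zeta, theta and omega classes, had the smallest standard errors of the 36 genes (0.07 to 0.12 on the log2 scale). Gstt1, which conjugates small halogenated compounds, measured 24.6 ± 0.974 CPM in Ctrl and 22.5 ± 2.86 in KO mice, and Gstt3 29.9 ± 2.95 and 29.8 ± 1.66. Gstt2 measured 39.4, 49.9, 53.2 and 55.8 CPM in Ctrl and 42.7, 39.7, 38.6 and 47.2 CPM in KO mice. Its log2 fold change of -0.24 ± 0.12 had an unadjusted edgeR p of 0.0708, and KO mouse 1 was higher than Ctrl mouse 1 while the other 3 pairs were lower. The unadjusted edgeR p was 0.00562 without Ctrl mouse 1 and 0.0418 without KO mouse 4. Gstz1 ranged only from 52.7 to 61.2 CPM over the 8 mice. Gstk1, the kappa-class enzyme of mitochondria and peroxisomes, measured 11.3, 10.6, 10.9 and 16.5 CPM in Ctrl and 14.2, 15.2, 18.4 and 12.1 CPM in KO mice. All KO mice lay above Ctrl mice 1 to 3, and Ctrl mouse 4 lay above KO mice 1, 2 and 4 (log2 fold change 0.28 ± 0.18, unadjusted p = 0.158).

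Of the UGT2 genes on chromosome 5 (chr5:86889767-87591594, a stretch of 13 members that ends with the SULT genes Sult1b1, Sult1d1 and Sult1e1), none passed without the block. Ugt2b34 measured 333, 278, 303 and 336 CPM in Ctrl and 310, 294, 408 and 391 CPM in KO mice 1 to 4, a log2 fold change of 0.17 ± 0.12 (unadjusted p = 0.207). Ugt2a3, which glucuronidates bile acids, measured 55.8, 23.6, 37.9 and 40.6 CPM in Ctrl and 35.7, 25.8, 70.7 and 49.9 CPM in KO mice (0.21 ± 0.32, unadjusted p = 0.543). In both genes KO mouse 3 was the highest and Ctrl mouse 2 the lowest of the 8 mice. Ugt2b35 went the other way, with 88.2, 59.6, 63.2 and 73.8 CPM in Ctrl and 71.2, 49.2, 55.7 and 61.7 CPM in KO mice. The genotypes overlapped, but the KO mouse was lower in each of the 4 pairs, so that the log2 fold change of -0.26 ± 0.15 (unadjusted p = 0.107) became -0.26 with an unadjusted p of 0.00467 (adjusted p = 0.242) under the block, where 4.13% of all genes were called lower, and an unadjusted p of 0.0373 without KO mouse 1. The less abundant Ugt2b5 and Ugt2b36 had values of 0.40 ± 0.25 and 0.30 ± 0.16 (unadjusted p = 0.148 and 0.0891), both with overlapping genotypes. Ugt2b5 was 0.12 without KO mouse 4 and 0.59 (unadjusted p = 0.0169, edgeR) without KO mouse 2, and Ugt2b36 was 0.41 (unadjusted p = 0.0234) without Ctrl mouse 1 and 0.38 (unadjusted p = 0.0395) without KO mouse 2. Moreover, 24.7% of the windows of Ugt2b5 occur in its neighbours Ugt2b38 and Ugt2b37. Of the 7 tested members in this stretch, 4 (Ugt2b34, Ugt2a3, Sult1b1 and Sult1d1) were highest in KO mouse 3, as were 17.4% of all genes tested.

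At the Ugt1a locus, 4 of the 9 genes were tested. Ugt1a7c measured 89.1, 66.1, 81.2 and 57.8 CPM in Ctrl and 63.4, 83.5, 74.0 and 71.7 CPM in KO mice, and supplied 65.7% of the CPM assigned to the locus. Ugt1a1, the enzyme that glucuronidates bilirubin, measured 32.8, 15.7, 36.2 and 25.9 CPM in Ctrl and 22.8, 16.7, 33.8 and 33.8 CPM in KO mice (log2 fold change -0.04 ± 0.29, unadjusted p = 0.883), with mouse 2 the lowest of each genotype. Ugt1a6a, an enzyme for planar phenols, measured 8.59, 7.71, 7.03 and 7.60 CPM in Ctrl and 5.12, 6.83, 6.49 and 6.08 CPM in KO mice 1 to 4. Every KO mouse lay below every Ctrl mouse, with 6.83 CPM in KO mouse 2 just under 7.03 CPM in Ctrl mouse 3. Its log2 fold change was -0.33 ± 0.14 (unadjusted p = 0.0442, adjusted p = 0.585, edgeR), and the exact two-sided permutation p of 0.0286 is the smallest that 4 against 4 mice can give. It missed 0.05 under the block (-0.34, unadjusted p = 0.0743, edgeR), and leaving out single mice gave unadjusted p of 0.0354 to 0.106, under 0.05 only without Ctrl mouse 3 or KO mouse 2. Ugt1a9 measured 3.20 ± 0.945 CPM in Ctrl and 2.98 ± 0.932 in KO mice. The CPM of all 9 genes summed to 113 ± 22.4 in Ctrl and 110 ± 10.2 in KO mice.

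How the annotation splits this locus bears directly on these values. Reads in the 4 common exons were not counted for every gene, since Ugt1a10, which shares 1458 bases with its neighbours, had 0 counts in all 8 mice. The counts of a gene then rest on the exonic bases that no other gene holds. For Ugt1a9 these are the 879 bases of its own exon, and for Ugt1a1 they are 385 bases of its own exon, the rest being overlapped by Gm20528, which had no counts. For Ugt1a6a, 1920 of its 2142 unshared bases (89.6%) lie among the common exons, in 3 stretches that are exonic in no other Ugt1a gene, and its own exon is also annotated as an exon of Ugt1a7c except for its first 95 bases. For Ugt1a7c, 998 of 1915 unshared bases (52.1%) lie beyond the end of the last common exon, in chr1:88219005-88220002. A read from an unspliced or extended transcript of any Ugt1a gene would overlap these stretches, so which promoter gave the counts of Ugt1a6a and Ugt1a7c cannot be told apart, and the part of this in the Ugt1a6a difference was not tested. Per kilobase of unshared exon, Ctrl mice had 71.8 CPM for Ugt1a1, 38.4 for Ugt1a7c, 3.65 for Ugt1a9 and 3.61 for Ugt1a6a, an order in which Ugt1a1 stands above Ugt1a7c, whereas FPKM over the full gene length (12.2 and 17.3 as means of 8 mice) places Ugt1a7c above Ugt1a1.

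**Figure D4:**
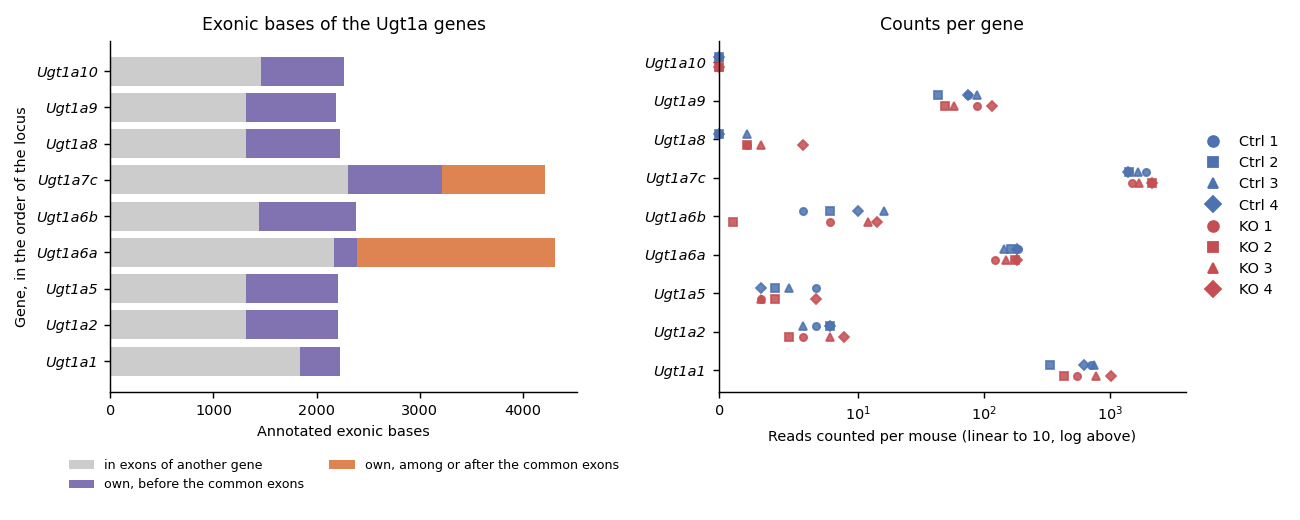
Left, annotated exonic bases of the 9 Ugt1a genes, split into bases held by another gene as well (grey), own bases before the common exons (purple) and own bases among or after the common exons (orange). Right, reads counted per gene in each mouse (blue Ctrl, red KO, n = 4 each; axis linear to 10 and logarithmic above). Only Ugt1a7c and Ugt1a6a have orange bases (998 and 1920), and Ugt1a10 has 0 reads in all mice.

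Single mice held many of the extreme values. KO mouse 3 was the highest of the 8 mice for 7 of the 36 genes (Ugt2b34, Sult1d1, Sult1b1, Gstm3, Ugt2a3, Gstk1 and Sult2b1), a share of 19.4% beside 17.4% of all genes tested, and the lowest for 4 (Gstm5, Gstt2, Gstp2 and Gsto2). KO mouse 2 was the lowest for 13 members (36.1%, beside 13.2% of all genes), among them Gstm3, Gstm1, Gsta4, Gstm2, Gstt1, Gstz1 and Ugt2b35. The summed CPM of 12 enterocyte markers was 3379, 2595, 3626 and 6237 in Ctrl mice 1 to 4 and 3951, 5046, 13862 and 8698 in KO mice 1 to 4. Of the 12, 5 were higher in KO at unadjusted p under 0.05 (edgeR, 5.33% of all genes tested), 0 were lower and none was without reads. Within the KO group, Sult2b1 and Sult1b1 ranked the mice in the order of the enterocyte sum (mouse 3 highest, then 4, 2 and 1), and within the Ctrl group mouse 4 was highest for both genes and for that sum. The sums of the proximal enterocyte markers (423, 501, 1451 and 997 CPM in KO mice 1 to 4) and of the T cell markers (30.6, 50.2, 118 and 86.8 CPM) ranked the KO mice in the same order, whereas the ileal (1054, 1668, 1935 and 2054 CPM) and goblet sums (6039, 8669, 8517 and 8086 CPM) did not. Their part in the differences of Sult2b1 and Sult1b1 was not tested.

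Marker sums of gut regions and of other cell types also varied between mice. In the counts that follow, higher and lower mean an unadjusted edgeR p under 0.05. Of all genes tested, 5.33% passed as higher and 3.05% as lower. No marker of any list passed after adjustment (smallest adjusted p = 0.502, edgeR). The log2 fold change was above 0 for 8 of 8 T cell, 7 of 10 proximal and 0 of 10 stem cell markers. The lists were chosen with earlier results of these data known. The 8 ileal enterocyte markers were all higher in KO (summed CPM 456 to 1027 in Ctrl and 1054 to 2054 in KO mice), and 2 of 10 proximal markers were higher (384 to 925 and 423 to 1451). Of 8 T cell markers 7 were higher, with sums of 14.5 to 52.6 CPM in Ctrl and 30.6 to 118 in KO mice, lowest in mouse 1 and highest in mouse 3 of the KO group. Of 10 stem cell markers 6 were lower (5815 to 6375 CPM in Ctrl, 4406 to 5392 in KO mice). None of 10 proliferation markers and none of 8 Paneth markers passed, and the Paneth sum was 51844 CPM in Ctrl mouse 1 against 8012 to 28527 in the other 7 mice. Of 8 goblet markers 2 were higher and 1 lower (5058 to 6859 and 6039 to 8669 CPM), and of 7 tested tuft markers 2 were lower (57.5 to 133 and 42.5 to 75.3 CPM). Of 3 tested pancreas and liver markers 1 was lower (15.7 to 28.3 and 11.0 to 16.8 CPM), as was the 1 tested blood marker, and 1 of 9 enteroendocrine markers was higher. None of the colon, B and plasma cell, myeloid, stroma or endothelial markers passed. The enterocyte, ileal, proximal, stem, goblet, Paneth and T cell sums stand beside the members by mouse in the heat map, and their part in the members' values was not tested.

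**Figure D5:**
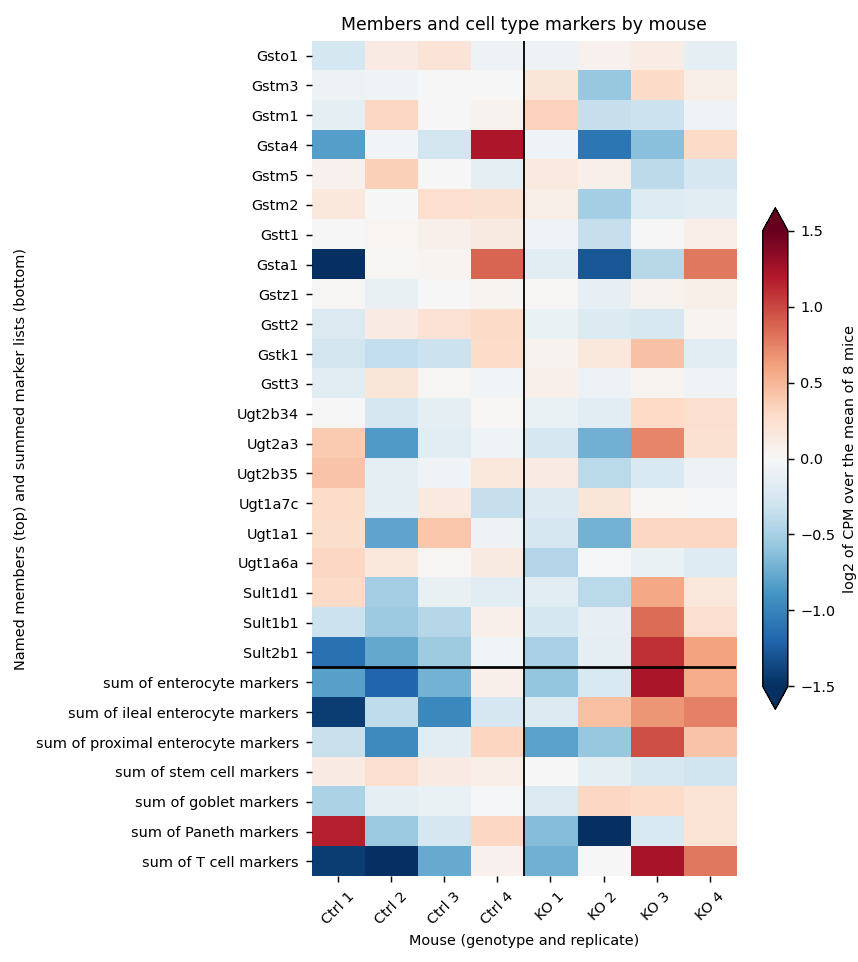
The 21 named members (above the line) and the summed CPM of 7 marker lists (below it) in each mouse, as log2 of CPM over the mean of the 8 mice, from blue (lower) to red (higher), with Ctrl mice to the left. Sult2b1, Sult1b1 and Ugt2a3 are reddest in KO 3, as are the enterocyte and T cell marker sums, Gsta4 and Gsta1 are reddest in Ctrl 4, and most other GST rows are pale.

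With genotype as the only term, the genes that supply or follow the 3 families that passed were all higher in KO mice. These were 105 tested genes in 7 lists of cosubstrate supply, other enzymes of detoxification and relatives, export and regulation. None passed after adjustment (smallest adjusted p = 0.429, edgeR). At unadjusted p under 0.05, 13 were higher in KO (12.4%, against 5.33% of all genes tested) and 0 lower (against 3.05%). Without KO mouse 3 the number was 7 (2.99% of all genes were then called higher) and without Ctrl mouse 3 it was 8 (3.90%), and 10 of the 13 genes were highest in KO mouse 3. These lists were chosen with earlier results of these data known, so their share is not independent of the data. The counts of single lists that follow stand against the same 5.33%, and the lists are small. In the glutathione list 3 of 15 passed, all of them peptidases of the brush border that act on glutathione or its products: Ggt1 (log2 fold change 1.38 ± 0.56), Dpep1 (1.57 ± 0.49) and Anpep (1.40 ± 0.50). The enzymes of glutathione synthesis in this list, such as Gclc (-0.07 ± 0.07) and Gclm (0.18 ± 0.12), did not pass. Anpep is also in the enterocyte list.

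No gene of the UDP-glucuronate list passed (0 of 8), and 1 of 10 did in the PAPS list, the sulfate transporter Slc26a2 (0.43 ± 0.17). Under the replicate block, where 7.14% of all genes were called higher, Ugdh (unadjusted p = 0.0414, edgeR) and Slc35d2 (0.0423) of the first list and Suox (unadjusted p = 0.000562, edgeR) of the second passed as well, all higher in KO. Among exporters, 3 of 11 passed. Abcg2, an apical pump for sulfate and glucuronide conjugates, measured 58.4, 62.1, 57.8 and 78.2 CPM in Ctrl and 81.6, 92.1, 96.6 and 105 CPM in KO mice 1 to 4. Every KO mouse lay above every Ctrl mouse (0.55 ± 0.12, unadjusted p = 0.000959, adjusted p = 0.429, edgeR), as was so for 2.17% of all genes tested. Slc51a (1.10 ± 0.31) and Slc51b (1.51 ± 0.50), the subunits of the basolateral bile acid and steroid exporter, are also in the ileal list. Among 25 other enzymes of detoxification and relatives, not all of which conjugate, Akr1b7 (1.95 ± 0.51), Baat (1.38 ± 0.55) and Clic5 (1.06 ± 0.36) were higher. Under the block, where 4.13% of all genes were called lower, Hnmt of this list passed as lower in KO. Of 24 sensors and regulators only Nr1h4, the bile acid receptor, passed (0.40 ± 0.16). Of 20 NRF2 targets outside the 3 families 2 passed, Srxn1 (0.75 ± 0.24) and Osgin1 (0.64 ± 0.27), and under the block Pgd passed (unadjusted p = 0.0109, edgeR) and Osgin1 did not (unadjusted p = 0.0740).

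Mice 1 and 2 of each genotype carried Y-linked transcripts and mice 3 and 4 carried Xist, a split found in the counts and not given in the labels. With genotype in the fit, 6 of the 36 genes differed between these groups of 4 mice at unadjusted p under 0.05, against 17.8% of all genes tested, and none after adjustment (smallest adjusted p = 0.0874, edgeR). Sult2b1 (log2 difference of Y minus Xist mice -0.92), Sult1b1 (-0.52), Ugt2b34 (-0.24), Ugt1a1 (-0.57) and Gsta1 (-1.0) were higher in the Xist mice and Gstm5 (0.36) in the Y mice. Sex and replicate number cannot be told apart here, since mice 1 and 2 differ from mice 3 and 4 in both.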

How the data were processed

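RNA of intestinal crypts from 4 Ctrl and 4 KO mice was compared. The authors deposited raw counts per gene, and the submitters' processing notes name CASAVA, HISAT2 2.0.5 and featureCounts 1.5.0-p3. The genome build and the strand setting are not given in the sources used here, but 54037 of 55114 genes, and 60 of the 64 members, have the start and end of GENCODE M21 (GRCm38). The deposited FPKM values scale these counts to gene length and to a library size that, worked back from the values, was 0.961 to 1.05 times the counted total of the mouse. How the authors set it is not given in the sources used here. The deposited gene lengths, another column of the authors, served only to describe FPKM. Columns with the authors' own fold changes, p-values and group means were not used.

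edgeR 4.0.16 (R 4.3.3) was fitted to the counts of all 8 mice with genotype as the only term (filterByExpr with a minimum count of 10, TMM factors, quasi-likelihood test), and p-values were adjusted by Benjamini-Hochberg over 16109 genes. CPM are TMM-scaled. The common biological coefficient of variation was 0.237 (prior degrees of freedom 3.34, residual 6). Alternatives were DESeq2 1.42.0, limma 3.58.1 on log2(FPKM + 1) or log2(FPKM + 0.1), other factors and filters, a replicate block, the Xist or Y group as covariate, robust dispersion, and leaving out each mouse. Same-numbered mice deviated together (correlation over all genes 0.129 to 0.501 in the 4 pairs; 0.0873 to 0.481 on autosomes, with 2 of 4 pairs above 0.1), although Ctrl mouse 4 and KO mouse 3 gave 0.237 (0.195 on autosomes), more than same-numbered pairs 1 and 3, and blocked values are given where they change a call. Littermates are stated, but which mice shared a litter is not. Replicates differed by more than counting noise (chi-square over its degrees of freedom, 15.0 to 53.8), so each mouse is 1 replicate.

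The 21 members called named averaged at least 10 CPM, had an unadjusted p under 0.05 or had genotypes without overlap. Values of some other members are given beside them. The members and lists were chosen with earlier results of these data known. Shared exons and transcript windows of 100 bases were computed from GENCODE M21, and motifs were searched with Python 3.11.15 in RefSeq promoters. Depth limits genes under about 1 CPM, for which counting error alone is large.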

Additional observations from a re-analysis of the deposited data

Results flagged for a closer look

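In 5 of 72 groups examined (36 tested members in both genotypes), 1 mouse lay further from the other 3 than Dixon's 95% critical value for 4 samples allows, where about 3.6 would be marked by chance. For Gstk1, Ctrl mouse 4 measured 16.5 CPM and the other Ctrl mice 10.6 to 11.3 CPM, a gap of 0.871 of the group's range. Without this mouse the log2 fold change of Gstk1 was 0.45 (unadjusted p = 0.0207, adjusted p = 0.443, edgeR), beside 0.28 with all mice. For Sult6b2, KO mouse 4 measured 10.4 CPM and the other KO mice 1.40 to 2.31 CPM (0.899), and the value without it stands in the report. For Sult1c2, KO mouse 4 measured 8.01 CPM and the other KO mice 3.99 to 4.46 CPM (0.883), and the log2 fold change was -0.79 without it. For Gstm6, KO mouse 2 measured 5.63 CPM and the other KO mice 9.78 to 10.6 CPM (0.832), and the log2 fold change was 0.17 without it, beside -0.01 with all mice. For Gstp2, Ctrl mouse 2 measured 0.748 CPM and the other Ctrl mice 0.195 to 0.251 CPM (0.900), and the log2 fold change was 0.90 without it, beside 0.26 with all mice. What set these mice apart was not tested.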

How the results depend on the processing

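Of 399 values of the 21 named members under 19 alternatives, 332 kept their direction and their side of an unadjusted p of 0.05, 15 lost the threshold, 14 gained it and 38, in 10 members, changed sign; the cause was not tested. No alternative gave a member an adjusted p under 0.05. With all mice, the sign changed for Gstt3 (DESeq2 9.99e-05, RLE factors 0.000368, no filter 0.00216, limma 0.00626, 0.00737 with a pseudocount of 0.1 and 0.00626 with no filter), Gsto1 (limma 0.00245, 0.00250 and 0.00245) and Ugt1a7c (no filter 0.000558, limma 0.0126, 0.0139 and 0.0126, replicate block 0.00621), all changes near 0.

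Leaving out single mice gave log2 fold changes of -0.631 to 0.242 for Gsta1, -0.754 to 0.0704 for Gsta4, -0.0348 to 0.219 for Gstm3, -0.0923 to 0.0611 for Gsto1, -0.0550 to 0.0592 for Gstt3, -0.0111 to 0.0667 for Gstz1, -0.0165 to 0.347 for Sult1d1, -0.237 to 0.129 for Ugt1a1, -0.107 to 0.0973 for Ugt1a7c and -0.0875 to 0.418 for Ugt2a3.

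Members higher in KO at unadjusted p under 0.05, 1 in the report, were 2 by DESeq2 (6.10% of all genes called higher), with the replicate block (7.14%) and with the Xist or Y group as covariate (7.26%), 3 without a filter (edgeR 4.20%, limma 3.83%), and 0 to 5 without single mice (0 without Ctrl mouse 2, 4.38%, or KO mouse 3, 2.99%, and 5 without KO mouse 2, 5.52%). Members lower, 2 in the report, were 1 without a filter (edgeR, 2.24% of all genes called lower, and limma, 2.40%) and 0 to 3 without single mice (0 without Ctrl mouse 4, 2.61%). Pathway genes lower, 0 in the report, were 1 by DESeq2, without a filter and with the block (Hnmt), and 0 to 4 without single mice (4 without Ctrl mouse 3, 2.37%), and pathway genes higher were 7 to 19. Over all genes DESeq2 gave 93 adjusted calls where edgeR gave 1. The block changed the calls of Sult1b1, Ugt2b35 and Ugt1a6a and of no other named member.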
